A study of Mus musculus with 36 samples.

Results

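The genes described here are 37 mouse genes of the lysosome, the acidic organelle in which cells degrade what they take up and what they recycle. They were taken by gene symbol, and all 37 were found among the 29883 genes of the count table. By role they are 5 membrane proteins (Lamp1, Lamp2, Cd68, Scarb2 and the calcium channel Mcoln1), 9 proteases (Ctsa, Ctsb, Ctsc, Ctsd, Ctsh, Ctsl, Ctsz, Tpp1 and Lgmn), 10 genes of sphingolipid and other lipid breakdown (Glb1, Galc, Gla, Hexa, Psap, Neu1, Asah1, Smpd1, Arsa and Ppt1), 9 genes of glycan and glycogen breakdown (Gaa, Gusb, Naglu, Arsb, Man2b1, Fuca1, Idua, Ids and Sgsh), progranulin (Grn) and 3 transcription factors (Tfeb, Tfe3 and Mitf).

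The study measured RNA by sequencing in bone-marrow derived macrophages and in mouse glioma cells, each grown alone (mono-culture) or in co-culture with the other, at 0 h (labelled Control) or at 6 h or 24 h with myelin debris. This gives 12 groups of 3 libraries, numbered 1 to 3, and 36 libraries in all. The glioma cells are labelled PDG-Ink4a Recurrent, and the study's design text describes tumours driven by PDGFB in Nestin-positive progenitors of mice lacking Ink4a/Arf, so every glioma library carries that background. The cells were purified by FACS, and the libraries were made from a few nanograms of RNA by oligo-dT priming. Nothing in the labels names a separate culture or animal for each library, so p-values measure the spread between these libraries, which may be technical in part. How long the 0 h cultures were kept is also not stated, and an effect of myelin and one of hours in culture cannot be told apart.

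Myelin is rich in galactolipids, sulfatide and sphingomyelin and also holds gangliosides, and macrophages that engulf its debris break these down in lysosomes. Galactosylceramidase (Galc), arylsulfatase A (Arsa), acid beta-galactosidase (Glb1), hexosaminidase A (Hexa) and acid sphingomyelinase (Smpd1) each remove a part of such lipids. Alpha-galactosidase A (Gla) removes galactose from other glycolipids. Prosaposin (Psap) is cut into the small proteins that present lipids to these enzymes, and acid ceramidase (Asah1) splits the ceramide that is left. TFEB, TFE3 and MITF are related transcription factors that drive many lysosomal genes through the CLEAR element, which has the letters CACGTG at its core, and they are held in the cytoplasm when mTORC1 is active at the lysosome.

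Total counts ran from 7911378 to 15319104 per library, with a median of 12262573. The lowest count of a member in a library was 244 in macrophages (Smpd1) and 15 in glioma cells (Cd68). Library 1 stood apart from libraries 2 and 3 in both cell types. The macrophage libraries numbered 1 had Xist at 0 and Ddx3y at 56.8 to 78.1 CPM (counts scaled to library size), whereas those numbered 2 and 3 had Xist at 531 to 1243 CPM and Ddx3y at 0 alone and at 2.49 to 5.75 CPM in co-culture. These are the patterns of male cells in number 1 and of female cells in numbers 2 and 3, so the spread between macrophage libraries is not technical alone. The transcript CT010467.1 took 4.08% to 17.4% of counts in macrophage libraries 1 and 0.391% to 1.22% in the others. In glioma libraries it took 0.267% to 13.4% of counts in number 1 and 0.279% to 2.2% in numbers 2 and 3. The 20 macrophage markers, all of them detected in every group, summed to 17646 to 25246 CPM in macrophages. In glioma libraries 1 they summed to 14 to 34.6 CPM, and in glioma libraries 2 and 3 to 349 to 2250 CPM. The 19 glioma cell markers summed to 28148 to 44935 CPM in glioma cells, with Olig1 at 0 in every glioma group, to 45 to 134 CPM in macrophages alone and to 432 to 1606 CPM in co-cultured macrophages. The 9 oligodendrocyte markers summed to 139 to 177 CPM in macrophages and to 23.6 to 41.2 CPM in glioma cells. Dendritic cell markers summed to 0.144 to 3.23 CPM in macrophages, and neuron markers to 5.08 to 19.2 CPM in macrophages and 124 to 270 CPM in glioma cells.

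Before myelin, most lysosomal genes were at a higher level in macrophages alone than in glioma cells alone: 30 of the 37 members were higher, 4 were lower (Gaa, Smpd1, Arsb and Arsa) and 3 did not pass the test (Glb1, Ids and Asah1). Called means a Benjamini-Hochberg adjusted p under 0.05 over all genes of the comparison in edgeR's quasi-likelihood test. Of 14776 genes in the fit of all 36 libraries, 32.4% were higher and 37.7% lower in macrophages. All 5 membrane proteins, all 9 proteases, progranulin and all 3 transcription factors were higher in macrophages, against 6 of the 10 lipid genes and 6 of the 9 glycan genes. The median log2 difference was 1.87 over the members and -0.04 over all genes. As a share of counts scaled with the normalization factors, the members together came to 4% in macrophages alone at 0 h. In glioma cells alone at 0 h they came to 0.878%, with factors from the separate fit of that cell type.

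Cd68, a heavily glycosylated lysosomal membrane protein used as a macrophage marker, was at 1339, 1339 and 1235 CPM in macrophages and at 1.88, 10 and 12.9 CPM in glioma cells, a log2 difference of 7.29 ± 1.46 (SE; adjusted p = 8.54e-05, edgeR). Mitf was at 157, 163 and 169 against 6.96, 5.87 and 4.44 CPM (4.83 ± 0.22, adjusted p = 3.53e-17). Ctsb, cathepsin B, was at 11455, 10759 and 11056 against 707, 795 and 800 CPM (3.85 ± 0.25, adjusted p = 1.09e-13). In none of these did the libraries of the cell types overlap. Idua, which removes iduronic acid from heparan and dermatan sulfate, was higher by 4.13 ± 0.17, and Gla by 3.73 ± 0.32, on the log2 scale.

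Gaa, the acid alpha-glucosidase of glycogen, went the other way, with 144, 95.2 and 113 CPM in macrophages and 287, 224 and 230 CPM in glioma cells (log2 difference -1.07 ± 0.21, adjusted p = 6.95e-05, edgeR). Smpd1 was at 36.1, 28.5 and 28.9 against 68.2, 55.2 and 52.2 CPM (-0.92 ± 0.14, adjusted p = 1.16e-06). Arsa was at 49.6, 44.2 and 49 against 93.8, 60.9 and 65.5 CPM (-0.62 ± 0.21, adjusted p = 0.00892). In these genes every glioma library was above every macrophage library, but the call for Arsa was lost without macrophage library 2 at 0 h, without glioma library 1 at 0 h and with no filter on low counts. Glb1 did not pass, at 90.6, 88.3 and 94.2 against 92.5, 91.3 and 91.2 CPM, a log2 difference of -0.01 ± 0.09.

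To compare genes with each other, levels were divided by the length of all annotated exons of a gene, joined over its transcripts. The ranks depend on that length, since the transcripts made in these cells can be shorter. Per kilobase of exon, Psap was the member with the highest level in both cell types, at 2837 ± 384 CPM per kb (SD, n = 3) in macrophages alone at 0 h and 566 ± 43.1 in glioma cells. In macrophages it was followed by Ctsd (1934 ± 140), Ctsb (1840 ± 144), Cd68 (1041 ± 85.9), Ctsz (766 ± 138) and Lamp1 (711 ± 66.7). Ctsd and Ctsb lay within their spread of each other, as did Ctsz and Lamp1. The member with the lowest value there was Galc, at 7.36 ± 0.906 CPM per kb, within the spread of Smpd1. Galc also had the longest exon length of the members, 14879 bases, so its rank rests on that length. Before division by length Galc was at 122, 95.5 and 111 CPM, above Smpd1 at 38.2, 27.8 and 28.2 CPM. In glioma cells Lamp1 (555 ± 9.79) came next to Psap and within its spread, ahead of Ctsd (226 ± 45.6), Ctsb (132 ± 8.8) and Asah1 (116 ± 11.2), while Mitf (0.971 ± 0.214) and Idua (1.04 ± 0.26), within their spread of each other, were the lowest. Cd68 was 4 in rank in macrophages and 29 in glioma cells.

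**Figure D1:**
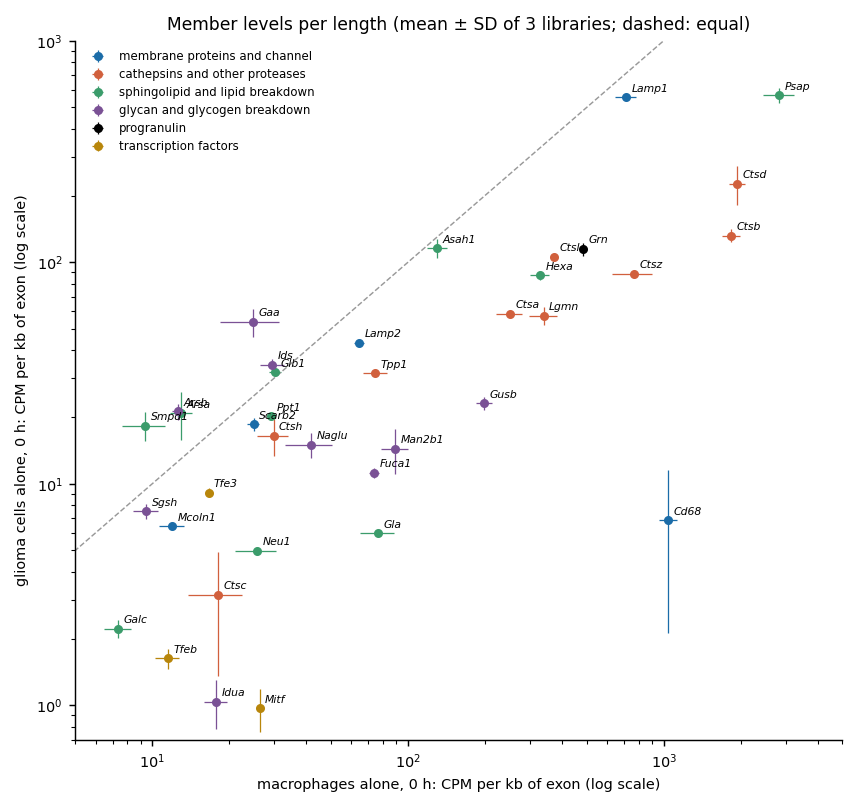
Level of each of the 37 members per kilobase of exon at 0 h in macrophages alone (horizontal axis) and in glioma cells alone (vertical axis), both in CPM per kb on log axes, as mean ± SD of 3 libraries, coloured by role; the dashed line marks equal levels. Most members lie below the line, Cd68 and Mitf farthest from it, and Gaa, Smpd1, Arsb, Arsa and, closer to it, Ids and Glb1 lie above it.

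In macrophages alone, the lysosomal genes were broadly higher after 24 h with myelin than at 0 h. Of the 37 members, 25 rose, none fell and 12 did not pass the test (edgeR). Of the 13165 genes tested in macrophages, 7.57% rose and 7.61% fell. The median log2 change was 0.46 over the members, 33 of which were above 0, and -0.00 over all genes, and the largest change was 1.60-fold, so the rise was wide and modest in size. Summed over the members, macrophages alone had 39965 ± 2992 CPM at 0 h (SD, n = 3), and this sum was 44584 ± 5254 at 6 h and 56721 ± 7924 at 24 h, or 4%, 4.46% and 5.67% of the scaled counts. In such a bulk measure, a change in the cells present and a change in RNA per cell cannot be told apart.

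Among the genes of lipid breakdown, 8 of 10 rose, with a median log2 change of 0.49 over the 10. Glb1 (ENSMUSG00000045594, chromosome 9, 114401076 to 114474898 in mm10), which takes galactose from gangliosides and other glycoconjugates, was at 95.9, 86.2 and 91.7 CPM at 0 h and at 148, 140 and 150 CPM at 24 h, a log2 change of 0.68 ± 0.08 (SE; adjusted p = 0.0001, edgeR). Psap (ENSMUSG00000004207, chromosome 10, 60277627 to 60302597) was at 8852, 6744 and 7758 CPM and then at 13356, 9071 and 14701 CPM (0.67 ± 0.20, adjusted p = 0.0303). Galc (ENSMUSG00000021003, chromosome 12, 98202294 to 98259459), the enzyme that degrades the main galactolipid of myelin, was at 122, 95.5 and 111 CPM and then at 189, 136 and 195 CPM (0.66 ± 0.17, adjusted p = 0.0149). In all 3 genes the 24 h libraries lay above the 0 h libraries, narrowly for Psap, where 24 h library 2 was just above 0 h library 1.

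Gla was at 294, 225 and 230 CPM at 0 h and at 406, 353 and 393 CPM at 24 h (log2 change 0.62 ± 0.15, adjusted p = 0.0116, edgeR). Ppt1, which removes fatty acids from proteins, rose by 0.46 ± 0.07, Hexa by 0.42 ± 0.11, Smpd1 by 0.48 ± 0.12 and the sialidase Neu1 by 0.49 ± 0.15. Arsa, the sulfatase that acts on sulfatide, did not pass, with 52.5, 43.2 and 47.7 CPM at 0 h and 60.2, 44.8 and 54.8 CPM at 24 h (0.16 ± 0.13, adjusted p = 0.484), and its groups overlapped. Asah1 did not pass either.

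All 5 membrane proteins rose, with a median log2 change of 0.40. Lamp1, with Lamp2 a main glycoprotein of the lysosomal membrane, was at 2108, 1819 and 1781 CPM at 0 h and at 2929, 2367 and 2957 CPM at 24 h (0.53 ± 0.11, adjusted p = 0.00585, edgeR). Cd68 was at 1418, 1308 and 1202 CPM and then at 1808, 1504 and 1875 CPM (0.40 ± 0.12, adjusted p = 0.0362). For both, every 24 h library was above every 0 h library. Lamp2 rose by 0.46 ± 0.08, Mcoln1 by 0.38 ± 0.10 and Scarb2, the receptor that carries glucocerebrosidase to the lysosome, by 0.32 ± 0.08.

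Of the 9 proteases, 5 rose (Ctsb, Ctsd, Ctsz, Tpp1 and Lgmn), with a median log2 change of 0.51 over the 9. Tpp1, a tripeptidyl peptidase, was at 433, 359 and 362 CPM at 0 h and at 610, 545 and 590 CPM at 24 h (0.60 ± 0.11, adjusted p = 0.00284, edgeR). Ctsb was at 12125, 10505 and 10764 CPM and then at 16505, 14379 and 17562 CPM (0.54 ± 0.13, adjusted p = 0.0119). Ctsd, the main aspartic protease of the lysosome, was at 4912, 4270 and 4461 CPM and then at 7079, 5322 and 7033 CPM (0.51 ± 0.15, adjusted p = 0.0313). The groups did not overlap in these 3 genes. Ctsl, cathepsin L, was at 2381, 2379 and 2490 CPM and then at 2625, 2175 and 2719 CPM, which overlap (0.05 ± 0.12, adjusted p = 0.832).

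Among the genes of glycan breakdown, 6 of 9 rose (Gusb, Naglu, Arsb, Man2b1, Fuca1 and Sgsh), with log2 changes from 0.30 for Fuca1 to 0.57 for Naglu. Gaa was at 153, 93 and 110 CPM at 0 h and at 237, 122 and 197 CPM at 24 h, which overlap, and its change of 0.65 ± 0.23 did not pass (adjusted p = 0.0761, edgeR). Progranulin, a secreted and lysosomal protein needed for the function of several of these enzymes, rose from 1712, 1685 and 1633 CPM to 2366, 2197 and 2802 CPM (0.55 ± 0.11, adjusted p = 0.00368), without overlap. None of the 3 transcription factors passed. Tfeb was at 73.5, 60.9 and 61.4 CPM and then at 80.9, 54.7 and 79 CPM (0.13 ± 0.18, adjusted p = 0.68), and Mitf was at 166, 159 and 164 CPM and then at 136, 126 and 136 CPM (-0.30 ± 0.12, adjusted p = 0.098). The Tfeb libraries overlapped, whereas each Mitf library was lower at 24 h than any at 0 h.

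Over all 37 members, 34 were higher at 24 h than at 0 h in library number 1, 30 in number 2 and 33 in number 3. The median log2 changes were 0.40, 0.34 and 0.64. All 25 called members were among them each time. They were called from these same libraries, so this is no separate support. Of the called members, Ctsz, Neu1, Smpd1 and Naglu had overlapping groups. Same-number libraries varied together in this comparison, and with the number as a block 28 members rose and 2 fell, against 10.6% and 11.6% of all genes: Ctsa, Ctsh and Gaa (adjusted p = 0.00254) were added as higher, and Ctsc (0.0451) and Ids (0.0077) as lower. The count of 25 was smaller without 24 h library 1 (11), without 24 h library 3 (9), without 0 h library 2 (10), without 0 h library 3 (10) and in a fit of only the 6 libraries compared (12, with Mitf lower). Over all genes the calls fell too, from 1998 to 1314, 997, 772, 1007 and 1061 in the same order. The 8 members called in every one of those fits and under every other alternative tried were Lamp1, Lamp2, Tpp1, Glb1, Ppt1, Gusb, Arsb and Grn. The counts of Ctsd could include reads of Gm49369, which shares 34.4% of its exon bases on the same strand, and 32.3% of Arsb, 26.8% of Ctsl, 21.6% of Sgsh, 18.8% of Arsa and 12.8% of Ctsb and of Hexa lie under genes on the opposite strand. Whether the strand was used in counting is not stated.

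**Figure D2:**
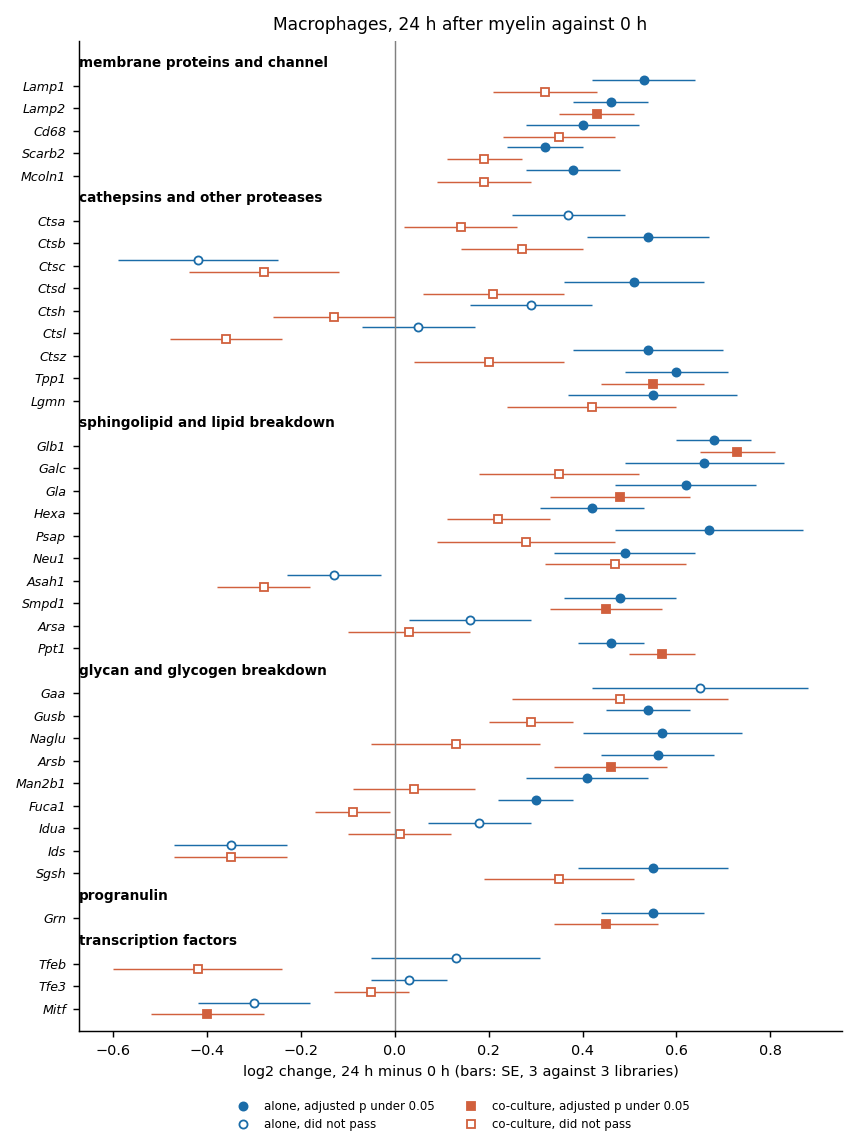
Log2 change from 0 h to 24 h with myelin for each member in macrophages alone and in co-cultured macrophages, with SE bars, grouped by role; filled points passed an adjusted p under 0.05. Points for macrophages alone lie mostly between 0.3 and 0.7 outside the transcription factors, and 25 of 37 are filled, against 9 in co-culture.

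At 6 h in macrophages alone no member passed in edgeR, where 2.15% of all genes did. At an unadjusted p under 0.05 there were 5 members (13.5%), against 16.3% of all genes, and DESeq2 called 1, against 5.56%. The median log2 change was 0.12, with 32 of 37 members above 0. Glb1 had the smallest p, with 114, 104 and 124 CPM at 6 h, all above its 0 h libraries (0.32 ± 0.08, adjusted p = 0.0565). With the library number as a block Glb1 (adjusted p = 0.013) and Sgsh (0.0426) rose, against 2.41% of all genes higher. Without 6 h library 1 there were 2 calls, and without 6 h library 2 there was 1, where 547 and 233 of all genes were called.

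The other members followed had 6 h levels that mostly overlapped those at 0 h. Gla was at 341, 274 and 324 CPM at 6 h alone (0.33 ± 0.15, adjusted p = 0.285, edgeR), and Psap at 9195, 6745 and 9869 CPM (0.14 ± 0.19, adjusted p = 0.792). Ctsb was at 13217, 11087 and 13580 CPM (0.18 ± 0.13, adjusted p = 0.531) and Lamp1 at 2269, 1919 and 2249 CPM (0.17 ± 0.11, adjusted p = 0.486). Libraries 1 and 3 were high and library 2 low in each of these, and the same held for each at 24 h alone. Mitf had the largest negative estimate, with 159, 117 and 107 CPM, where library 1 was as high as at 0 h and libraries 2 and 3 were lower (-0.36 ± 0.12, adjusted p = 0.136).

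The promoters of the members were searched for the core of the CLEAR element. The members were picked as lysosomal genes, many of which this element serves. A higher share of it among them is therefore no separate result about their change. RefSeq promoters of GRCm38.p6, from 250 bases before to 50 bases after a gene's start, were found for 34 of the 37 members, 42 promoters in all. The letters CACGTG, which read the same on both strands, were present in 12 of the 42 (28.6%), against 7.15% of all 32851 promoters and 9.94% of 12128 promoters of coding genes tested in macrophages. The longer form TCACGTGA, which contains the former, was present in 9.52% of member promoters, against 0.974% of all and 1.83% of those tested. A form of 10 bases that contains TCACGTGA was searched too. It was present in 0 of the 42 member promoters, against 0.326% of all and 0.709% of those tested. With shares this low, 42 promoters are too few to show a difference in the 10-base form. The 12 genes with CACGTG were Lamp1, Mcoln1, Ctsa, Ctsd, Ctsl, Lgmn, Glb1, Gla, Arsa, Gaa, Naglu and Sgsh. The stretches upstream of the start are shown for 4 of them, which run from the member with the most matches, Lamp1 with 4, over Gla with 2, to Glb1 and Arsa with 1 each. The matches begin 61, 45, 28 and 15 bases before the start in Lamp1 (chr8:13159075-13159160, plus strand), 227 and 194 in Gla (chrX:134601169-134601255, minus strand), 48 in Glb1 (chr9:114401005-114401060, plus strand) and 16 in Arsa (chr15:89477425-89477465, minus strand). Each is written 5′ to 3′ on the gene's strand, and the capitals mark CACGTG, or TCACGTGA where the longer form is present.
Lamp1: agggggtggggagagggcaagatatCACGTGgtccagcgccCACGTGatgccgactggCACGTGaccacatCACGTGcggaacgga
Gla: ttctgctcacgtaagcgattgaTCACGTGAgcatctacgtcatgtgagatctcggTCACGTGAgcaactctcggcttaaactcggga
Glb1: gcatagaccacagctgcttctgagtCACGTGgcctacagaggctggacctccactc
Arsa: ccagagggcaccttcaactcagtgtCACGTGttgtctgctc

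Of these 4 genes Lamp1, Gla and Glb1 rose at 24 h in macrophages alone and Arsa did not pass. Over all 12 members with CACGTG, 8 rose, with a median log2 change of 0.54, and over the 22 members without it 16 rose, with a median of 0.44. A match of letters describes this window only and is not a measured binding site.

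In co-cultured macrophages fewer members passed at 24 h with myelin: 8 rose (Lamp2, Tpp1, Glb1, Gla, Smpd1, Ppt1, Arsb and Grn), 1 fell (Mitf) and 28 did not pass, against 5.39% of all genes higher and 6.02% lower. The median log2 change was 0.22 over the members, with 28 above 0. All 8 were among the 25 that rose in macrophages alone, that is 100% of the shorter and 32% of the longer list. The longer list holds most of the 37 members, so much overlap is likely in any case, and the overlap over all genes was not counted. By role the 8 were 1 of 5 membrane proteins, 1 of 9 proteases, 4 of 10 lipid genes, 1 of 9 glycan genes and progranulin. At 0 h the summed members were at 36645 ± 4765 CPM (SD, n = 3), which became 41284 ± 3264 at 6 h and 42560 ± 4051 by 24 h.

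Glb1 was at 98.8, 87.6 and 102 CPM at 0 h and at 151, 162 and 164 CPM at 24 h (0.73 ± 0.08, adjusted p = 0.000111, edgeR), beside 0.68 ± 0.08 in macrophages alone. Ppt1 was at 108, 116 and 129 CPM and then at 167, 169 and 188 CPM (0.57 ± 0.07, adjusted p = 0.000334), and Tpp1 at 320, 292 and 371 CPM and then at 437, 474 and 524 CPM (0.55 ± 0.11, adjusted p = 0.00584). In these genes the 24 h libraries lay clear of the 0 h libraries. Gla was at 191, 152 and 213 CPM and then at 209, 270 and 300 CPM (0.48 ± 0.15, adjusted p = 0.0445), with 24 h library 1 below 0 h library 3. Arsb, which removes sulfate from dermatan sulfate, was at 85, 79.6 and 80.3 CPM and then at 96.3, 121 and 119 CPM (0.46 ± 0.12, adjusted p = 0.0236), without overlap.

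Mitf fell from 84.9, 98.9 and 105 CPM to 71.8, 69.7 and 77.5 CPM (-0.40 ± 0.12, adjusted p = 0.0403, edgeR). All its 24 h libraries were below all 0 h libraries, but the call held in 1 of 6 fits with a library left out and was lost with DESeq2-type size factors in edgeR. Members that did not pass included Galc (98.5, 75.7 and 107 CPM, then 115, 104 and 138 CPM; 0.35 ± 0.17, adjusted p = 0.188) and Psap (5442, 4666 and 7071 CPM, then 6250, 6807 and 7814 CPM; 0.28 ± 0.19, adjusted p = 0.385), each with overlapping groups. Lamp1 was at 0.32 ± 0.11, Cd68 at 0.35 ± 0.12, Ctsb at 0.27 ± 0.13, Ctsd at 0.21 ± 0.15, Ctsl at -0.36 ± 0.12 and Tfeb at -0.42 ± 0.18, none of them past the threshold.

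With the library number as a block, 15 members rose and 5 fell in co-culture, against 9.4% and 10.3% of all genes. The block added Cd68, Gaa, Galc, Gusb, Lamp1, Lgmn and Neu1 as higher and Asah1, Ctsl, Ids and Tfeb as lower. DESeq2 called 17 members, against 14.5% of all genes. Without co-culture 0 h library 2 or 24 h library 2 there were 4 calls, while those over all genes fell from 1502 to 664 and 812. Lamp2, Tpp1, Glb1 and Ppt1 were called under every alternative tried. At 6 h in co-culture no member passed in edgeR, where 0.213% of all genes did. At an unadjusted p under 0.05 there were 6 (16.2%), against 12% of all genes, and DESeq2 called 1, against 2.53%. Glb1 was again the member with the smallest p, at 123, 115 and 133 CPM (0.36 ± 0.08, adjusted p = 0.0766), above all its 0 h libraries, and it rose with the block (adjusted p = 0.0162), against 0.965% of all genes higher.

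**Figure D3:**
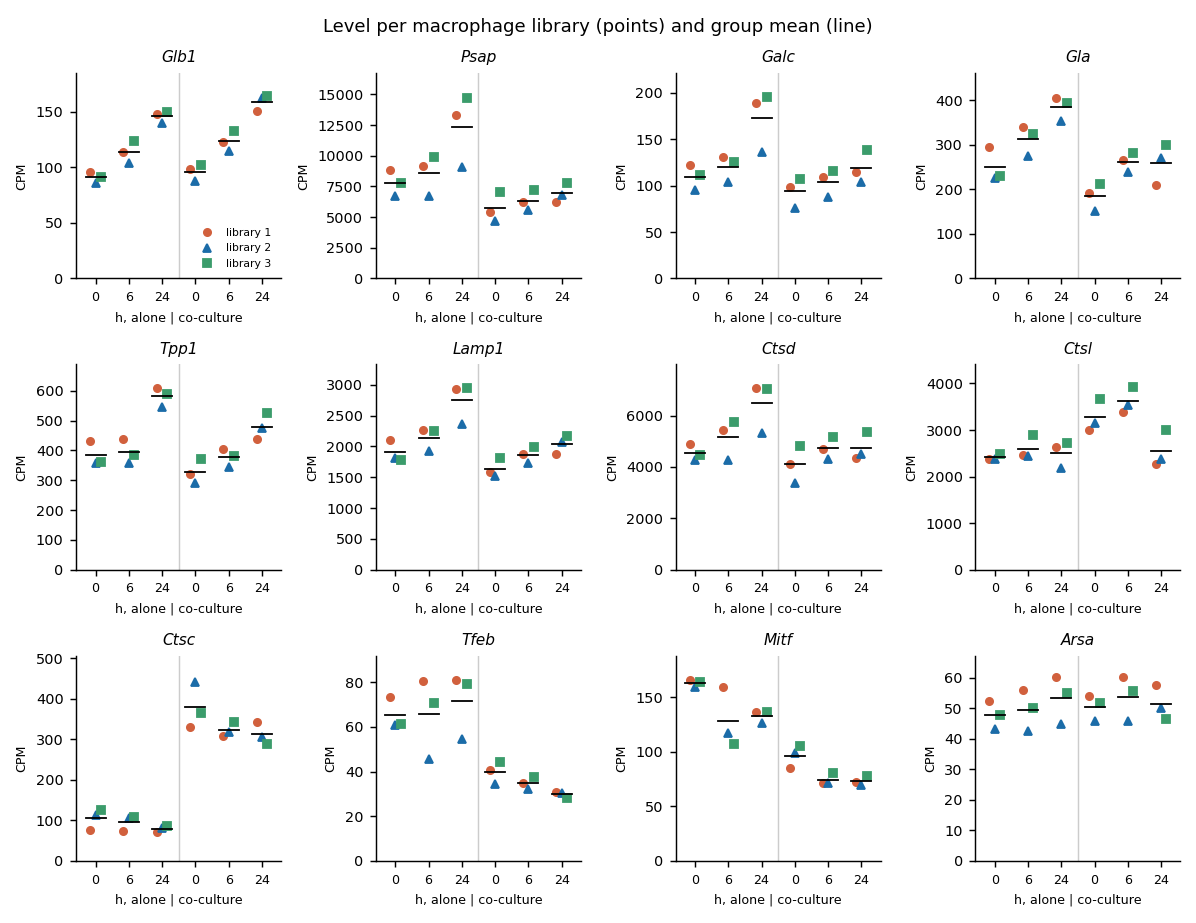
Level of named members in each of the 18 macrophage libraries, in CPM, at 0, 6 and 24 h alone and in co-culture; each point is a library, marked by its number, and lines are group means. Glb1 climbs to a similar level in both cultures, whereas Psap reaches 9071 to 14701 CPM at 24 h alone and 6250 to 7814 CPM in co-culture.

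In co-culture with glioma cells macrophages had lower Tfeb and Mitf and higher Ctsc than alone, at every time. At 0 h 3 members were higher in co-culture (Ctsc, Ctsh and Ctsl) and 2 lower (Mitf and Tfeb), against 7.69% and 6.02% of all genes. At 6 h the same 3 were higher, and Tfeb, Mitf and Tfe3 were lower, against 5.81% and 4.12%. At 24 h 2 were higher (Ctsc and Ppt1) and 19 lower, against 14.3% and 13.7%, with a median log2 difference of -0.31 over the members and -0.03 over all genes. The 24 h libraries alone that enter this difference are the same that enter the 24 h change in macrophages alone, so the 2 results are not independent. The glioma cell markers moved with culture too: their sum in macrophages was 75.4 to 134 CPM alone and 563 to 1263 CPM in co-culture at 0 h, and 45 to 93.2 against 1423 to 1606 CPM at 24 h. Their part in the differences was not tested.

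Ctsc (ENSMUSG00000030560, chromosome 7, 88278085 to 88310888), the dipeptidyl peptidase that activates serine proteases of immune cells, was at 77.4, 113 and 125 CPM alone and 330, 442 and 364 CPM in co-culture at 0 h (1.85 ± 0.17, adjusted p = 7.04e-06, edgeR). At 6 h it was at 74.9, 106 and 109 against 308, 317 and 342 CPM (1.73 ± 0.17, adjusted p = 1.87e-05), and at 24 h at 70.2, 80.2 and 85.5 against 344, 305 and 289 CPM (1.99 ± 0.17, adjusted p = 2.45e-06). At each time every co-culture library lay above every library alone. In glioma libraries Ctsc was at group means of 18.1 to 30.1 CPM, and the part of glioma RNA in its difference was not tested. Ctsh was at 113, 149 and 140 against 189, 213 and 214 CPM at 0 h (0.61 ± 0.13, adjusted p = 0.00572) and at 125, 144 and 167 against 203, 200 and 229 CPM at 6 h (0.53 ± 0.13, adjusted p = 0.0179). Ctsl was at 2381, 2379 and 2490 against 3002, 3146 and 3675 CPM at 0 h (0.44 ± 0.12, adjusted p = 0.0246), at 2465, 2437 and 2901 against 3391, 3539 and 3921 CPM at 6 h (0.48 ± 0.12, adjusted p = 0.0195) and at 2625, 2175 and 2719 against 2261, 2377 and 2992 CPM at 24 h, which did not pass (0.02 ± 0.12, adjusted p = 0.919). The groups of Ctsh and Ctsl did not overlap at 0 h and 6 h, but with libraries left out the Ctsl call held in 1 of 6 fits at 0 h and 2 of 6 at 6 h, and the Ctsh call in 3 of 6 at 6 h.

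Tfeb (ENSMUSG00000023990, chromosome 17, 47737030 to 47792419) was at 73.5, 60.9 and 61.4 CPM alone and 40.6, 34.6 and 44.3 CPM in co-culture at 0 h (-0.71 ± 0.18, adjusted p = 0.0154, edgeR). It was at 80.6, 45.8 and 70.9 against 34.8, 32.4 and 37.4 CPM at 6 h (-0.90 ± 0.18, adjusted p = 0.00424) and at 80.9, 54.7 and 79 against 31, 30.5 and 28 CPM at 24 h (-1.26 ± 0.18, adjusted p = 0.000153). Its libraries never overlapped between the cultures. Mitf (ENSMUSG00000035158, chromosome 6, 97807052 to 98021349) was at 166, 159 and 164 against 84.9, 98.9 and 105 CPM at 0 h (-0.76 ± 0.12, adjusted p = 0.000469), at 159, 117 and 107 against 70.9, 71.3 and 80.7 CPM at 6 h (-0.78 ± 0.12, adjusted p = 0.000585) and at 136, 126 and 136 against 71.8, 69.7 and 77.5 CPM at 24 h (-0.86 ± 0.12, adjusted p = 9.07e-05), again without overlap. Tfe3 was lower at 6 h, with 180, 166 and 178 against 133, 139 and 144 CPM (-0.33 ± 0.08, adjusted p = 0.00867), and at 24 h. The Mitf call held in every fit with a library left out at all 3 times, and the Tfeb call at 6 h and 24 h. At 0 h Tfeb was lost without library 1 alone and without co-culture library 2. With libraries 2 and 3 only, Tfeb was not called at 0 h or 6 h, nor was Tfe3 at 6 h. With only the compared groups Tfe3 was not called at 6 h or 24 h.

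At 24 h the lower members were all 3 transcription factors, 4 of 5 membrane proteins (not Scarb2), 4 of 9 proteases, 4 of 10 lipid genes and 4 of 9 glycan genes. Psap was at 13356, 9071 and 14701 CPM alone and at 6250, 6807 and 7814 CPM in co-culture (-0.83 ± 0.20, adjusted p = 0.00505, edgeR). Naglu, which removes N-acetylglucosamine from heparan sulfate, was at 187, 130 and 177 against 107, 104 and 105 CPM (-0.64 ± 0.17, adjusted p = 0.013), and Ctsa, the protective protein of Glb1 and Neu1, at 1711, 1297 and 1542 against 928, 992 and 1111 CPM (-0.59 ± 0.12, adjusted p = 0.00242). In these 3 genes every co-culture library was below every library alone.

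Smaller differences in the same direction were measured at 24 h for Gla (-0.56), Galc (-0.54), Ctsd (-0.45), Lamp1 (-0.43), Cd68 (-0.38) and Ctsb (-0.37), all past the threshold, as were Ctsz, Mcoln1, Fuca1, Idua, Hexa, Gusb, Tfe3 and Lamp2, from -0.55 to -0.27. Ctsd and Galc had overlapping libraries. Ppt1 was higher in co-culture, with 145, 147 and 151 against 167, 169 and 188 CPM (0.24 ± 0.07, adjusted p = 0.0227, edgeR). Glb1 (0.13 ± 0.08), Tpp1 (-0.28 ± 0.11), Arsa (-0.05 ± 0.13) and Grn (0.01) did not pass.

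The same-number libraries varied together between the cultures at 0 h, and with the number as a block 3 members were higher and 10 lower there, against 10.6% and 8.82% of all genes. The block added Cd68, Ctsa, Galc, Gla, Idua, Lamp2, Mcoln1 and Psap as lower. The 5 calls at 0 h became 3 without library 1 alone or without co-culture library 2, and 8 without co-culture library 3. Those over all genes went from 1806 to 1249, 1020 and 1473 in the same order. At 24 h the 21 calls became 13 without library 1 alone or without co-culture library 1, 11 without library 3 alone and 9 with libraries 2 and 3 only. There the calls over all genes went from 3689 to 2472, 3094, 2822 and 2987. The 7 called under every alternative at 24 h were Mcoln1, Ctsa, Ctsc, Fuca1, Idua, Tfeb and Mitf.

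**Figure D4:**
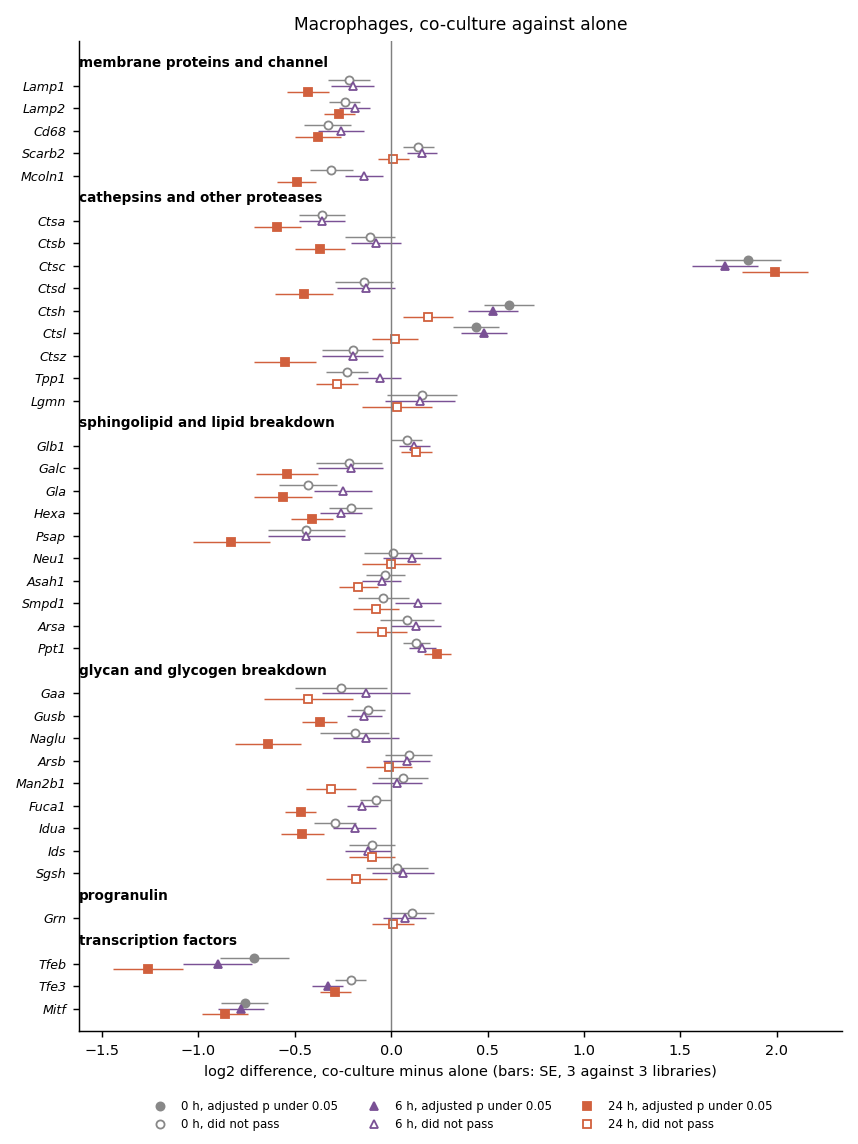
Log2 difference between co-cultured macrophages and macrophages alone for each member at 0 h and at 6 h and 24 h with myelin, with SE bars, grouped by role; filled points passed an adjusted p under 0.05. Ctsc stands far to the right at all 3 times, at 1.85, 1.73 and 1.99, and Tfeb and Mitf to the left.

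The difference between the cultures in the 24 h change, tested directly, passed for no member in edgeR, where 0.0152% of all genes did. At an unadjusted p under 0.05 there were 4 members (10.8%), against 7.45% of all genes, and DESeq2 called 0. The estimate was below 0 in 33 of 37 members, with a median of -0.17 on the log2 scale, and was -0.55 ± 0.26 for Tfeb (adjusted p = 0.666), -0.39 ± 0.11 for Fuca1 (adjusted p = 0.375), -0.39 ± 0.28 for Psap (adjusted p = 0.824) and 0.05 ± 0.12 for Glb1 (adjusted p = 0.995). The smaller number of members that passed in co-culture is therefore not shown to be a different response of any member.

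The other lysosomal genes followed were 4 lists: other hydrolases and their cofactors (28 tested in macrophages), other membrane proteins and transporters (24), the machinery that sorts enzymes to the lysosome (13) and regulators of mTORC1 and TFEB (19). At 24 h in macrophages alone 7 hydrolases, 9 membrane proteins, 3 sorting genes and 5 regulators rose and none fell, against 7.57% of all genes higher and 7.61% lower. The largest changes were those of Mcoln3, a calcium channel related to Mcoln1 (17.7 to 45.4 CPM, log2 change 1.42 ± 0.39, adjusted p = 0.0236, edgeR), Rragd, a small GTPase that brings mTORC1 to the lysosome (23.5 to 59.2 CPM, 1.35 ± 0.29, adjusted p = 0.00706), and Ctsf (1.04 ± 0.19). Flcn, folliculin, which acts on the Rag GTPases, went from 61.2 to 106 CPM (0.80 ± 0.15, adjusted p = 0.00239), and Sort1, a sorting receptor, from 69.8 to 120 CPM (0.78 ± 0.18, adjusted p = 0.0101). Rragc rose by 0.49 ± 0.10 and was the only gene of the 4 lists called at 6 h, at 0.39 ± 0.10 alone and 0.49 in co-culture.

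In co-culture at 24 h, 1 hydrolase (Ctsf, 0.77), 3 membrane proteins (Mcoln3, Laptm4b and Mcoln2), 2 sorting genes (Sort1 and Vps29) and 4 regulators rose, Rragd by 1.06 and Flcn by 0.59 among them, while Slc37a2, Rptor and Lamtor1 fell, against 5.39% of all genes higher and 6.02% lower. Between the cultures, Lipa, the acid lipase that frees cholesterol from its esters, was lower in co-culture at 0 h (2763 against 1247 CPM, log2 difference -1.15 ± 0.13, adjusted p = 3.43e-05, edgeR), at 6 h (-1.07) and at 24 h (2663 against 1094 CPM, -1.28 ± 0.13, adjusted p = 8.31e-06). At 24 h 9 hydrolases, 13 membrane proteins, 3 sorting genes and 8 regulators were lower in co-culture and 2, 0, 1 and 0 were higher, against 13.7% and 14.3% of all genes. Rragd was at 59.2 CPM alone and 25.7 CPM in co-culture (-1.20 ± 0.28, adjusted p = 0.00578), and Tpcn2, an ion channel, was lower by 0.97 in size (-0.97 ± 0.11).

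In glioma cells alone, 9 members rose after 24 h with myelin (Lgmn, Grn, Ppt1, Scarb2, Sgsh, Fuca1, Mcoln1, Lamp2 and Hexa), none fell and 28 did not pass, against 3.66% of all 13603 genes higher and 6.81% lower (edgeR). The median log2 change was 0.40 over the members, with 35 above 0, and 0.01 over all genes. All 9 were among the 25 that rose in macrophages alone, or 36% of that list. Most of the 37 members are on that list, so much overlap is likely in any case. The overlap over all genes was not counted. The summed members were at 8785 ± 266 CPM (SD, n = 3) at 0 h and 11126 ± 1992 at 24 h. The macrophage markers moved too, from 14, 349 and 467 CPM at 0 h to 20.4, 1778 and 2250 CPM at 24 h in libraries 1, 2 and 3, and were low in library 1 at every time.

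Lgmn (ENSMUSG00000021190, chromosome 12, 102394084 to 102439813), legumain, an asparaginyl protease, was at 122, 146 and 132 CPM at 0 h and at 158, 232 and 242 CPM at 24 h (0.66 ± 0.19, adjusted p = 0.0395, edgeR). Grn was at 431, 381 and 390 CPM and then at 461, 573 and 728 CPM (0.55 ± 0.17, adjusted p = 0.0463), and Ppt1 at 71, 76.1 and 75.9 CPM and then at 95.7, 108 and 109 CPM (0.49 ± 0.09, adjusted p = 0.0038). The groups did not overlap, though library 1 moved little in Grn. In macrophages alone at 0 h Lgmn was at 863, 677 and 822 CPM and Grn at 1712, 1685 and 1633 CPM. The part of macrophage RNA in their glioma values was not tested. With a library left out, the glioma calls of Lgmn and Grn each held in 1 of 6 fits, and that of Ppt1 in all 6. Scarb2 was at 108, 122 and 121 CPM and then at 148, 155 and 179 CPM (0.46 ± 0.10, adjusted p = 0.0124), and Sgsh, a sulfatase of heparan sulfate, at 30.9, 35.8 and 32.9 CPM and then at 38.1, 44.4 and 54.2 CPM (0.46 ± 0.11, adjusted p = 0.02). Within library 1, which is among the libraries they were called from, each of the 9 was higher at 24 h. The steps there ran from 0.10 (Grn) to 0.45 (Scarb2) on the log2 scale.

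Over all 37 members, 26 were higher at 24 h in library 1, 35 in library 2 and 36 in library 3, with median log2 changes of 0.20, 0.34 and 0.57. Cd68, Ctsb and Ctsd, which were far higher in macrophages than in glioma cells, had their larger steps in libraries 2 and 3. Cd68 was at 1.97, 10.4 and 13.4 CPM at 0 h and at 1.7, 67.9 and 80.9 CPM at 24 h (2.53 ± 1.59, adjusted p = 0.328, edgeR), up in libraries 2 and 3 and not in library 1. Ctsb was at 740, 827 and 836 CPM and then at 776, 1330 and 1541 CPM (0.60 ± 0.28, adjusted p = 0.185), and Ctsd at 409, 607 and 579 CPM and then at 501, 835 and 999 CPM (0.55 ± 0.26, adjusted p = 0.192), also with the smaller step in library 1. The part of macrophage RNA in these values was not tested.

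Lamp1 was at 1510, 1488 and 1457 CPM and then at 1501, 1628 and 1807 CPM (0.15 ± 0.10), and Glb1 at 96.9, 95.1 and 95.4 CPM and then at 100, 114 and 119 CPM (0.22 ± 0.08, adjusted p = 0.098, edgeR). The groups of Glb1 did not overlap, but it did not pass. Galc (-0.04 ± 0.31), Gla (0.37 ± 0.37), Psap (0.29 ± 0.18), Ctsl (0.09 ± 0.11), Tfeb (0.17 ± 0.17) and Mitf (0.35 ± 0.28) did not pass either. Arsa was at 98.2, 63.4 and 68.4 CPM and then at 127, 97 and 124 CPM (0.60 ± 0.26, adjusted p = 0.149), and Tpp1 at 163, 164 and 162 CPM and then at 166, 223 and 256 CPM (0.40 ± 0.16, adjusted p = 0.116).

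Same-number glioma libraries varied together, and with the number as a block 21 members rose, against 12.9% of all genes, among them Cd68 (adjusted p = 0.000652), Ctsd (0.00486), Arsa (0.00826), Ctsb (0.01) and Tpp1 (0.0261). With libraries 2 and 3 only, 26 rose, against 16.8% of all genes, and 23 of these 26 were also higher at 24 h in library 1. The count of 9 became 5 with only the compared groups, 4 without 0 h library 1 or 2, 5 without 24 h library 2, 3 without 0 h library 3 and 1 without 24 h library 3. Calls over all genes went from 1424 to 1343, 1041 or 769, 770, 668 and 537 in the same order. Ppt1 was the only member called under every alternative tried. Of the other lists, 5 hydrolases rose, among them Ctso (12.4 to 27.8 CPM, 1.16 ± 0.24, adjusted p = 0.00754) and Scpep1 (0.79 ± 0.13), as did Tmem175 (0.50), Gnptg (0.55) and Slc38a9 (0.67).

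**Figure D5:**
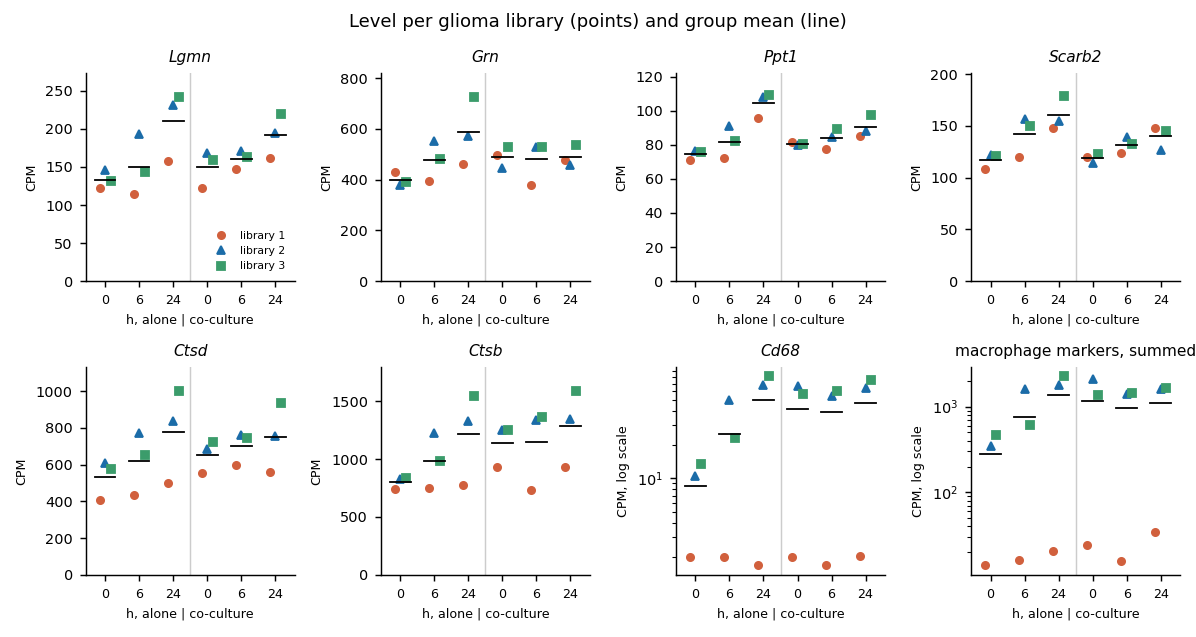
Level of named members and the summed macrophage markers in each of the 18 glioma libraries, in CPM (log scale where the axis says so), at 0, 6 and 24 h alone and in co-culture; each point is a library, marked by its number, and lines are group means. The marker sum and Cd68 are far lower in library 1 than in libraries 2 and 3 at every time, while Ppt1 at 24 h alone is higher than at 0 h in all 3 libraries.

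In the remaining glioma comparisons no member passed in edgeR. Alone at 6 h edgeR called 0.00735% of all genes. There 2 members (5.41%) were at an unadjusted p under 0.05, against 6% of all genes, DESeq2 called 0, and 5 rose with libraries 2 and 3 only, against 6.18%. In co-culture at 6 h edgeR called 0.0147% of all genes, 1 member (2.7%) was under that unadjusted p, against 6.01% of all genes, and DESeq2 called 0. At 24 h in co-culture edgeR called 0.787% of all genes, 4 members (10.8%) were under it, against 14.3%, and DESeq2 called 0. The summed members were at 10229 CPM, against 9821 CPM at 0 h. Glb1 was at 99.6, 89.8 and 90.8 CPM at 0 h and 105, 102 and 112 CPM at 24 h in co-culture (0.19 ± 0.08, adjusted p = 0.301, edgeR). Ctsb was at 927, 1251 and 1250 CPM and then at 931, 1344 and 1588 CPM (0.17 ± 0.28, adjusted p = 0.833), and Cd68 at 1.98, 66.6 and 56.9 CPM and then at 2.04, 63.7 and 75.8 CPM (0.17 ± 1.45, adjusted p = 0.974). For Ctsb and Cd68 library 1 was the lowest at both times and did not move, and the groups overlapped. With the number as a block Lgmn (adjusted p = 0.0424) and Smpd1 (0.0217) rose there, against 9.28% of all genes called, and with libraries 2 and 3 only 7 rose and 2 fell, against 22.6%.

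Between co-culture and culture alone no member passed in glioma cells either. At 0 h edgeR called 0% of all genes and DESeq2 called 0 members, and 0 members were at an unadjusted p under 0.05, against 5.13% of all genes. With the block Cd68 was higher in co-culture (adjusted p = 0.0141), against 1.19% of all genes called, and with libraries 2 and 3 only 6 were higher and 3 lower, against 15.8%. The macrophage markers were at 24.5, 2090 and 1376 CPM in co-culture and at 14, 349 and 467 CPM alone. At 6 h edgeR again called 0% of all genes, DESeq2 called 0 members, 0 were under that unadjusted p, against 3.99% of all genes, and 2 were lower with libraries 2 and 3 only, against 9.16%.

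At 24 h edgeR called 0.0809% of all genes. There 6 members (16.2%) were at an unadjusted p under 0.05, against 13.3% of all genes, and DESeq2 called 2, against 3.36%. The median log2 difference was -0.18, with 4 of 37 members above 0. With the block Hexa (adjusted p = 0.0284), Sgsh (0.036) and Mcoln1 (0.0473) were lower in co-culture, against 1.73% of all genes lower, and with libraries 2 and 3 only 12 were lower, against 10.4%. The difference between the cultures in the 24 h change passed for no member, where edgeR called 0% of all genes and DESeq2 called 0 members, and 6 members (16.2%) were at an unadjusted p under 0.05, against 3.65% of all genes. Its median was -0.31, with 2 members above 0, and with libraries 2 and 3 only Ctsb, Ctsz, Gla, Grn, Hexa and Lamp2 were lower, against 2.13% of all genes.

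Whether the 24 h change alone differed between the cell types was tested in the fit of all 36 libraries. It passed for Glb1, which rose by 0.49 ± 0.12 more on the log2 scale in macrophages than in glioma cells (adjusted p = 0.0178, edgeR), where 3.9% of all genes passed. At an unadjusted p under 0.05 there were 7 members (18.9%), against 16.8% of all genes. The Glb1 call held in 4 of 12 fits with a library left out, where the difference ran from 0.36 to 0.51, and was lost with no filter on low counts (adjusted p = 0.146), with only the compared groups (0.0973) and with libraries 2 and 3 only (0.0771). Lamp1 (0.42 ± 0.15, adjusted p = 0.115), Galc (0.73 ± 0.36, adjusted p = 0.304) and Psap (0.41 ± 0.27, adjusted p = 0.488) did not pass, nor did Ids (-0.58, adjusted p = 0.0706). The median difference over the members was 0.03.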

How the data were processed

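Raw gene counts of 36 libraries, as deposited by the authors, were the input. The genome build is mm10 per the submitters' processing notes. They were made with an aligner and a counter not given in the sources used here. Groups and library numbers were read from the sample titles. The 37 members and the other gene lists were chosen with earlier results of these data known. Counts were fitted with edgeR 4.0.16 (limma 3.58.1, R 4.3.3; TMM, filterByExpr, robust quasi-likelihood) on the 18 libraries of each cell type, and on all 36 between cell types, in 18 comparisons. CPM values use the TMM factors of the fit, so levels differ slightly between the fits. The SE is the size of the log2 change over the square root of F, and edgeR's estimate of biological variation (a coefficient) came to 0.164 in macrophages, 0.225 in glioma cells and 0.201 over both. The procedure was tested on simulated data with known changes in macrophages alone at 24 h. Those changes were larger than that of any member there, and the simulated libraries varied independently. How well changes of the members' size are recovered was not tested.

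Named with values were the up to 5 called members with the largest change per direction and comparison and 13 followed throughout (Lamp1, Cd68, Ctsb, Ctsd, Ctsl, Glb1, Galc, Gla, Arsa, Psap, Tpp1, Tfeb, Mitf), with other members by count and range and up to 3 genes of each further list, of which 1 is not reported here. At 6 h, and in comparisons where no member passed, only some of the followed members are given in full.

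Library numbers were taken to pair libraries where every same-number correlation of residuals exceeded 0.1. This held in all glioma comparisons, and in macrophages for changes from 0 h and for the cultures at 0 h. It did not hold in macrophages between the cultures at 6 h (-0.02) and 24 h (0.066), for the difference of cultures (0.066), between cell types (0.058) or for the difference in their response (0.007). The labels do not say that the numbers belong together. Alternatives were the number as a block, DESeq2 1.42.0, its size factors in edgeR, no filter on low counts, only the compared groups, libraries 2 and 3 only, and each library left out (48 fits). Promoter sequences come from RefSeq.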

Additional observations from a re-analysis of the deposited data

Results flagged for a closer look

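The 24 h myelin change of Glb1 differed between macrophages alone and glioma cells alone by 0.49 ± 0.12 on the log2 scale (adjusted p = 0.0178, edgeR), a test of the difference itself, which passed for no other member. The call held in 4 of 12 fits with a library left out and was lost with no filter on low counts (adjusted p = 0.146), with only the compared groups (0.0973) and with libraries 2 and 3 only (0.0771). At 0 h Glb1 was at 90.6, 88.3 and 94.2 CPM in macrophages and at 92.5, 91.3 and 91.2 CPM in glioma cells.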

How the results depend on the processing

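No call of a member reversed direction. Of 660 values of the 110 member calls under alternatives other than leaving a library out, 591 were still past the threshold and 69 were not. DESeq2's size factors moved the median of all genes by less than 0.1 on the log2 scale. With a replicate block for the library number the counts of members called became 2 in macrophages alone at 6 h and 1 in co-culture at 6 h, 20 in co-culture at 24 h, and 13 between the cultures at 0 h. In glioma cells they became 21 alone at 24 h, 2 in co-culture at 24 h, and 1 at 0 h and 3 at 24 h between the cultures. Where the numbers did not pair libraries the block gave 10 members between the macrophage cultures at 6 h and 4 for the difference in response between cell types. In the other comparisons it kept the count within 1.5 times. DESeq2 called 1 member in macrophages alone at 6 h, 1 in co-culture at 6 h and 17 in co-culture at 24 h, 2 between the glioma cultures at 24 h and 2 for the difference in response. Only the compared groups gave 13 in macrophages alone and 5 in glioma cells alone at 24 h, and 0 for the difference in response, for which DESeq2's size factors in edgeR gave 2 and no filter gave 0. With libraries 2 and 3 only, macrophages gave 1 alone at 6 h, and 3, 3 and 9 between the cultures at 0, 6 and 24 h. Glioma cells gave 5 and 26 alone at 6 and 24 h, 9 in co-culture at 24 h, 9, 2 and 12 between the cultures at 0, 6 and 24 h, and 6 for the difference of cultures, and the difference in response gave 7. The number of calls over all genes changed between these settings too, and the cause was not tested.

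With each library left out in turn, the count ran from 0 to 2 in macrophages alone at 6 h, 9 to 27 at 24 h, and 4 to 11 in co-culture at 24 h, with 0 throughout in co-culture at 6 h. Over all genes, the calls in macrophages alone at 24 h ran from 772 to 2315 in these fits. Between the macrophage cultures it ran from 3 to 8 at 0 h, 4 to 6 at 6 h and 11 to 23 at 24 h. In glioma cells it ran from 1 to 11 alone at 24 h and 0 to 1 in co-culture at 24 h, and was 0 in the other glioma comparisons and in the macrophage difference of cultures. It ran from 32 to 35 between cell types and from 0 to 2 for the difference in response. Depth limits the lowest members: Cd68 in glioma cells had as few as 15 counts in a library, and Idua a median of 68.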
